A study of Mus musculus with 9 samples.

Results

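The genes described here are 10 transcription factors, sensors and effectors of cellular stress responses, Atf3, Atf4, Atf5, Atf6, Ddit3, Xbp1, Ern1, Eif2ak3, Trib3 and Chac1, listed by name. All 10 are among the 21676 genes of the deposited tables, and all 10 passed the filter on low counts that left 13807 genes to test. RNA came from cultured B16 cells, a mouse melanoma line, in 9 libraries: 3 of cells with the hairpin shAD4-1, 3 with the hairpin shAD4-2 and 3 with a control hairpin (spelled shCotrol in the labels). The series title concerns the adhesion receptor ADGRL4, and its design text calls both hairpin groups knockdown derivatives with biological replicates. No treatment with a stress agent is labelled in any group, and no label says whether a derivative is a pool or a clone; p-values measure the spread between libraries of a single derivative per hairpin.

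Cells sense misfolded protein in the endoplasmic reticulum (ER) through 3 membrane proteins. PERK, the product of Eif2ak3, phosphorylates the translation factor eIF2 and so favours translation of Atf4. IRE1, the product of Ern1, cuts Xbp1 mRNA so that a frameshifted, active XBP1 is made. ATF6 travels to the Golgi and is cleaved into an active factor. Other kinases that answer to lack of amino acids, heme or to double-stranded RNA also act on eIF2, and the shared output is called the integrated stress response. ATF4, XBP1 and ATF6 are thus controlled largely by translation, splicing and cleavage, none of which gene-level read counts measure. The values below are mRNA levels.

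The stretch of Xbp1 mRNA that IRE1 removes is shown because the counts add both forms of the mRNA together. In the GENCODE M21 transcript Xbp1-201 (GRCm38, chromosome 11), bases 815 to 840 run between the middles of 2 matches to the hexamer CNGCNG, 26 bases apart. Removing those 26 bases lengthened the open reading frame from 267 to 371 codons. Another such pair, at bases 458 to 483, is not shown, because removal there shortened the frame to 216 codons. The capitals mark bases 815 to 840, with 20 bases on each side.

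Xbp1-201: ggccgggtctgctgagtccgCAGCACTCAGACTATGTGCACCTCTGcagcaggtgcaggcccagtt

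RefSeq promoter windows, running from 250 bases before to 50 bases after the annotated start, were found for 9 of the 10 genes in GRCm38.p6, a different build from the GRCm39 of the authors' counts. They were searched on both strands for 4 textbook elements of these factors. TGATGNAA, the core of the C/EBP-ATF element that ATF4 binds with C/EBP partners, was in 3.97% of all 32851 windows. TGACGTGG, an element bound by XBP1 and ATF6, was in 0.676%, TGACGTCA, the cyclic AMP response element of the CREB and ATF factors, in 1.79%, and the ER stress element, CCAAT and CCACG 9 bases apart, in 0.119%. Only the first had matches among these genes, in Atf3, Trib3 and Chac1, with 1 match each that overlapped no other motif. Those 3 windows are printed with the match in capitals, beside that of Ddit3, the gene that was lower by the most, which held none of the 4. A match describes letters only and is not a measured binding site. Absence of a match holds for the window alone, since sequence outside it was not searched.

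Atf3 (chr1:191183284-191183583, minus strand, match on the opposite strand beginning at base -110): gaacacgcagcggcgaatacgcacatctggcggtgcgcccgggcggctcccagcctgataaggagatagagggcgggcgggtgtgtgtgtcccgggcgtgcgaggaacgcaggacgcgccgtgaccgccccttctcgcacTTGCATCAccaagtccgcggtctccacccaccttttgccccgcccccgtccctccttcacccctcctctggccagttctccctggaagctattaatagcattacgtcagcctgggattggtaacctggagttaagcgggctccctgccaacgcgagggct

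Trib3 (chr2:152344011-152344310, minus strand, match on the opposite strand beginning at base 15 after the start): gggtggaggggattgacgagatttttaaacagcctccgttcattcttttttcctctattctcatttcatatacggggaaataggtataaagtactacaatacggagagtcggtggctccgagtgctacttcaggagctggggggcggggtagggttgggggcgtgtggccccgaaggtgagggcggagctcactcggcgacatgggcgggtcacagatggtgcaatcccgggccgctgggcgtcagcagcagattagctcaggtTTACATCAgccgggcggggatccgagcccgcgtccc

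Chac1 (chr2:119350992-119351291, plus strand, match on the opposite strand beginning at base -193): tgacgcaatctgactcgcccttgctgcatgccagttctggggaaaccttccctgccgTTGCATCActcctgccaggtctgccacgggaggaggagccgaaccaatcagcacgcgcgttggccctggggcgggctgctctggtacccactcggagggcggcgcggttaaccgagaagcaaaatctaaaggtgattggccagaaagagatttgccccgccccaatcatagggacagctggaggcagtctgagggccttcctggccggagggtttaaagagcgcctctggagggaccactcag

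Ddit3 (chr10:127290543-127290842, plus strand, no match): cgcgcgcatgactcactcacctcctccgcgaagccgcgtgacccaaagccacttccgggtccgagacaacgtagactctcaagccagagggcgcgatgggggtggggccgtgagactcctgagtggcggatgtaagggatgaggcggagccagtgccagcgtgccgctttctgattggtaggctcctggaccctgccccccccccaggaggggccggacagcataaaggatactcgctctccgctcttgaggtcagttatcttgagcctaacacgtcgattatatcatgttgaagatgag

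Libraries held 35.8 to 36.9 M counted reads with shAD4-1, 31.3 to 36.4 M with shAD4-2 and 31.5 to 36.4 M in control. The 7 melanocytic markers, Mitf, Sox10, Tyr, Tyrp1, Dct, Pmel and Mlana, summed to 9882 to 10095 CPM (read counts scaled by effective library size) with shAD4-1, 10718 to 11717 CPM with shAD4-2 and 11066 to 12684 CPM in control. Of the other marker lists, the single keratinocyte marker in the table stood at no more than 0.0308 CPM and the 3 endothelial markers summed to no more than 0.283 CPM in any library. The 4 leukocyte markers in the table summed to 2.28 to 3.35, 4.17 to 4.53 and 0.107 to 0.311 CPM with shAD4-1, with shAD4-2 and in control, nearly all of it Lyz2, while the pan-leukocyte marker Ptprc was at no more than 0.0284 CPM. The 3 fibroblast markers summed to 10.3 to 12.2, 12.4 to 14.0 and 5.08 to 7.10 CPM in the same order. The share of reads from 13 mitochondrially encoded genes was 3.74 ± 0.104%, 3.72 ± 0.150% and 2.45 ± 0.156% (SD, n = 3 each), and its part in the results below was not tested.

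Across the 10 genes, mRNA of the IRE1 substrate Xbp1 and of the factors Atf3 and Atf5 was 2.52-fold to 3.57-fold higher in both hairpin groups than in control. Chac1 and Atf6 rose less, mRNA of the PERK sensor Eif2ak3 and of Ddit3 fell, and Atf4 and Trib3 differed from control by at most 11.3%. With edgeR (quasi-likelihood fit, p-values adjusted by Benjamini-Hochberg over all tested genes, threshold 0.05), 8 of the 10 were higher and 2 lower with shAD4-1. Over all tested genes 32.7% were higher and 32.3% lower in that comparison. With shAD4-2, 6 were higher and 2 lower, against 34.2% and 34.8% of all tested genes. The same 6 were higher with both hairpins and the same 2 lower, against 28.1% and 27.6% of all tested genes. The comparisons share their control libraries. For the 10, log2 fold changes had a median of 0.38 with shAD4-1 and of 0.21 with shAD4-2, beside -0.01 over all tested genes in either comparison. In bulk RNA, a change in the share of cells that express a gene and a change in RNA per cell cannot be told apart.

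**Figure D1:**
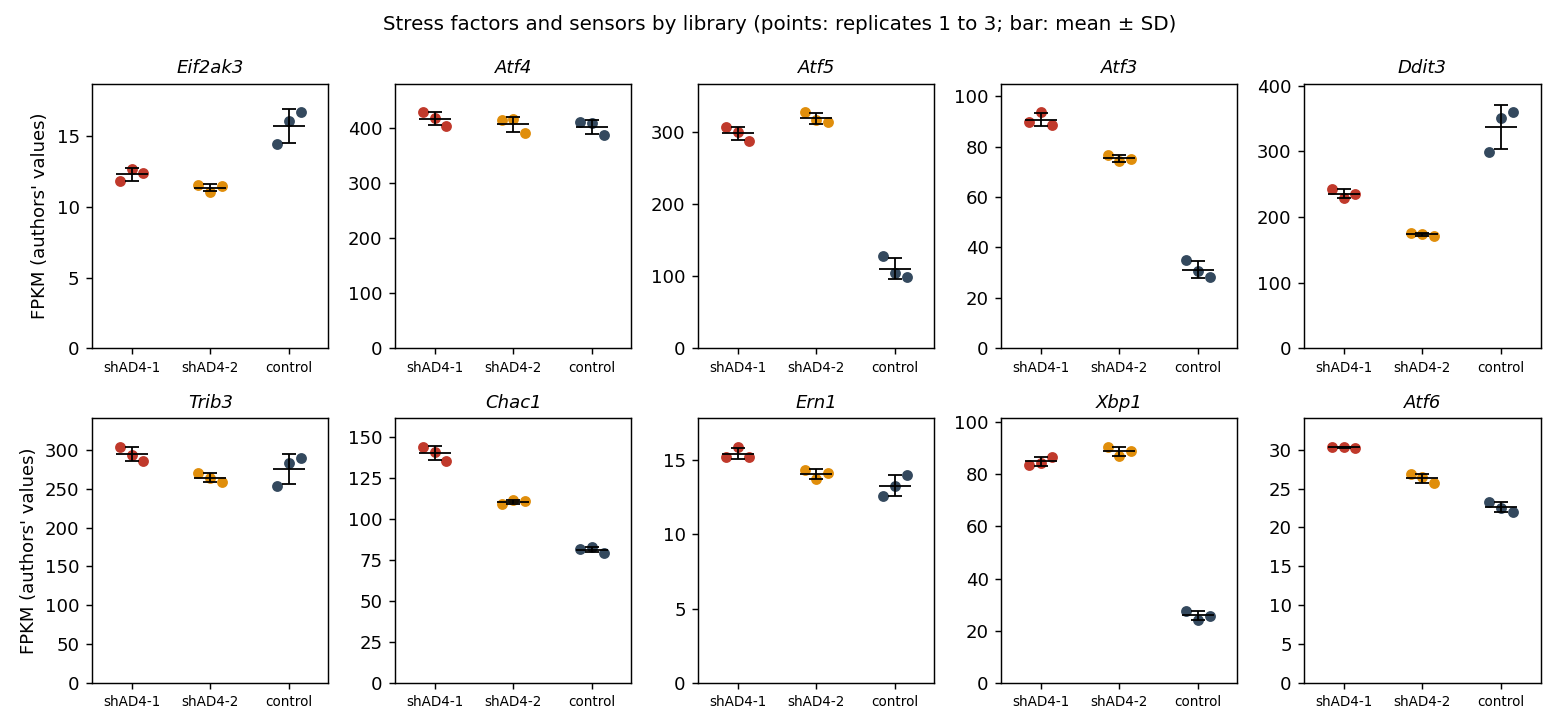
FPKM of each gene (vertical axis, from 0) in the 3 libraries of shAD4-1, shAD4-2 and control, with the mean and SD as a bar. Xbp1, Atf5 and Atf3 sit far above control in both hairpin groups, Ddit3 and Eif2ak3 sit below it, and Atf4 lies at 388 to 429 FPKM in all 9 libraries.

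**Figure D2:**
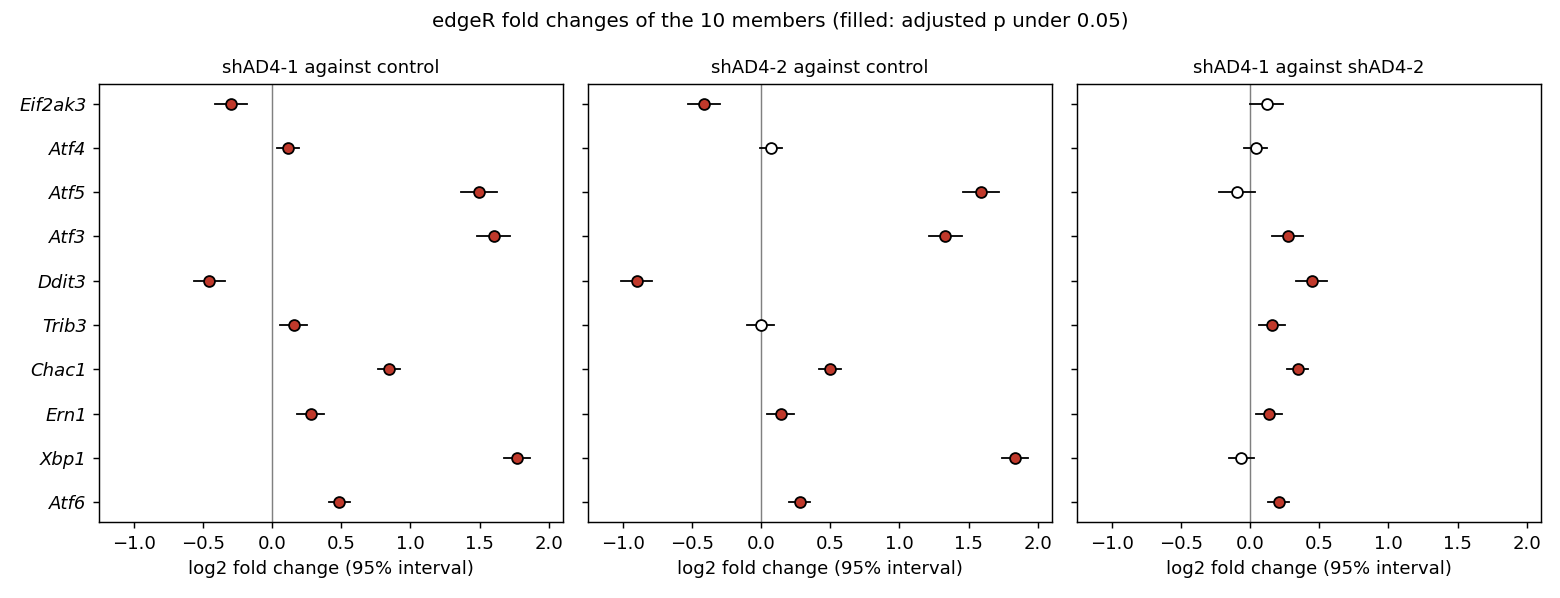
Log2 fold changes from edgeR with 95% intervals for the 3 comparisons, filled where the adjusted p was under 0.05. Xbp1 has the largest rise of the 10 with either hairpin, 1.77 and 1.84, and Ddit3 the largest fall, -0.46 and -0.90.

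Levels between genes were compared as FPKM, the authors' read values scaled by gene length and library total. In control libraries Atf4 was the most abundant of the 10 at 402 ± 12.4 FPKM, followed by Ddit3 at 337 ± 33.4, Trib3 at 275 ± 19.1, Atf5 at 110 ± 15.1 and Chac1 at 81.1 ± 1.68 FPKM (SD, n = 3). Below them came Atf3 at 31.2 ± 3.39, Xbp1 at 25.9 ± 1.74, Atf6 at 22.6 ± 0.638, Eif2ak3 at 15.8 ± 1.19 and Ern1 at 13.3 ± 0.707 FPKM. No control library overlapped between neighbours in this order. The order differed in the hairpin groups. Atf5 took the place after Atf4, at 299 ± 9.44 FPKM with shAD4-1, where its libraries overlapped those of Trib3, and at 320 ± 7.57 FPKM with shAD4-2, where they did not. Ern1 lay above Eif2ak3 in both, at 15.4 ± 0.399 against 12.3 ± 0.450 FPKM with shAD4-1 and at 14.1 ± 0.323 against 11.4 ± 0.252 FPKM with shAD4-2. The sensors were thus the least abundant mRNAs in every group.

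Among the sensors, Eif2ak3 stood at 11.8, 12.7 and 12.4 FPKM with shAD4-1, at 11.6, 11.1 and 11.5 with shAD4-2 and at 14.4, 16.1 and 16.7 in control. Every hairpin library lay below every control library. The fall was 1.23-fold with shAD4-1 (log2 fold change -0.30, SE 0.06; edgeR adjusted p = 0.000122) and 1.33-fold with shAD4-2 (-0.42, SE 0.06; adjusted p = 2.7e-06). Ern1 stood at 15.2, 15.9 and 15.2 FPKM with shAD4-1, at 14.4, 13.7 and 14.1 with shAD4-2 and at 12.6, 13.2 and 14.0 in control, with overlap between shAD4-2 and control in FPKM. In CPM it lay at 97.7 to 102 with shAD4-2 and at 85.6 to 95.8 in control, without overlap. It rose 1.21-fold with shAD4-1 (0.28, SE 0.05; edgeR adjusted p = 3.11e-05) and 1.10-fold with shAD4-2 (0.14, SE 0.05; adjusted p = 0.0109). The call with shAD4-2 was lost with limma on log2(FPKM + 1), at an adjusted p of 0.122. Atf6, both sensor and factor, stood at 30.4, 30.3 and 30.3 FPKM with shAD4-1, at 26.8, 26.5 and 25.7 with shAD4-2 and at 23.3, 22.5 and 22.0 in control, and the 3 groups did not overlap. It rose 1.40-fold (0.48, SE 0.04; edgeR adjusted p = 1.11e-09) and 1.21-fold (0.28, SE 0.04; adjusted p = 1.71e-06).

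Xbp1, the factor downstream of IRE1, had 83.5, 84.4 and 86.7 FPKM with shAD4-1, 90.5, 87.1 and 88.7 with shAD4-2 and 27.7, 24.3 and 25.7 in control. The hairpin libraries lay far above control. The rise was 3.42-fold with shAD4-1 (log2 fold change 1.77, SE 0.05; edgeR adjusted p = 2.79e-16) and 3.57-fold with shAD4-2 (1.84, SE 0.05; adjusted p = 1.32e-16), ranking 376 and 377 among the 13807 tested genes from the largest rise down. Atf5, an ATF4-related factor that acts in the mitochondrial stress response, had 307, 301 and 288 FPKM with shAD4-1, 328, 317 and 314 with shAD4-2 and 128, 105 and 99.3 in control. It rose 2.82-fold (1.49, SE 0.06; edgeR adjusted p = 4.37e-13) and 3.01-fold (1.59, SE 0.06; adjusted p = 1.47e-13). Atf3, a factor induced by many stresses that often acts as a repressor, had 89.8, 93.8 and 88.6 FPKM with shAD4-1, 76.8, 74.2 and 75.2 with shAD4-2 and 34.9, 30.4 and 28.2 in control. It rose 3.03-fold (1.60, SE 0.06; edgeR adjusted p = 3.05e-14) and 2.52-fold (1.33, SE 0.06; adjusted p = 3.72e-13). All 3 groups were apart for Atf3.

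Atf4 mRNA, by contrast, had 429, 418 and 404 FPKM with shAD4-1, 414, 415 and 391 with shAD4-2 and 410, 408 and 388 in control. The ranges of the groups overlapped in FPKM. In CPM Atf4 lay at 709 to 751 with shAD4-1, clear of the 653 to 690 in control, and at 684 to 728 with shAD4-2, which overlapped control. Atf4 differed from control by 0.11 in log2 with shAD4-1 (SE 0.04, 95% interval 0.03 to 0.19; edgeR adjusted p = 0.0154) and 0.07 with shAD4-2 (SE 0.04, interval -0.01 to 0.15; adjusted p = 0.0969). Neither side of the threshold was stable. With control replicate 3 left out the first call ended (edgeR adjusted p = 0.0552), as it did without shAD4-1 replicate 1 (adjusted p = 0.0738) and with limma on log2(FPKM + 1) (adjusted p = 0.245), and a call for shAD4-2 appeared without control replicate 1 (adjusted p = 0.0159) and without shAD4-2 replicate 3 (adjusted p = 0.0209).

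The remaining members lie downstream of ATF4. Ddit3 encodes CHOP, a factor linked to death under lasting ER stress, and its libraries had 243, 229 and 235 FPKM with shAD4-1, 176, 173 and 171 with shAD4-2 and 298, 352 and 360 in control. The 3 groups did not overlap, and control replicate 1 was lower than the other controls. Ddit3 fell 1.37-fold with shAD4-1 (log2 fold change -0.46, SE 0.05; edgeR adjusted p = 6.05e-07) and 1.87-fold with shAD4-2 (-0.90, SE 0.05; adjusted p = 5.37e-11). Across all alternatives and left-out libraries its log2 fold change ran from -0.53 to -0.40 with shAD4-1 and from -0.97 to -0.84 with shAD4-2.

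Chac1, an enzyme that degrades glutathione, moved the other way, with 144, 140 and 135 FPKM with shAD4-1, 109, 111 and 110 with shAD4-2 and 81.5, 82.5 and 79.2 in control. It rose 1.80-fold (0.84, SE 0.04; edgeR adjusted p = 9.18e-13) and 1.42-fold (0.50, SE 0.04; adjusted p = 1.18e-09), with no overlap between any 2 groups. Trib3, a pseudokinase that restrains ATF4 and CHOP activity, had 304, 293 and 286 FPKM with shAD4-1, 270, 264 and 258 with shAD4-2 and 254, 284 and 289 in control. Control replicate 1 was again the lowest library, and both hairpin ranges overlapped that of the controls in FPKM. In CPM, the scale of the test, Trib3 lay at 596 to 632 with shAD4-1, clear of the 504 to 578 in control, and at 536 to 561 with shAD4-2. Against control it differed by 0.15 in log2 with shAD4-1 (SE 0.05; edgeR adjusted p = 0.00618) and 0.00 with shAD4-2 (interval -0.10 to 0.09; adjusted p = 0.933). The first call was lost with limma on log2(FPKM + 1), at an adjusted p of 0.0923. Among the genes whose promoter windows held the C/EBP-ATF core, Atf3 and Chac1 rose with both hairpins and Trib3 was called with shAD4-1 only. Of the genes whose windows held no match, Xbp1, Atf5 and Ern1 rose with both and Ddit3 and Eif2ak3 fell. Atf6, which rose with both, had no window. Any part of the element in these differences was not tested.

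**Figure D3:**
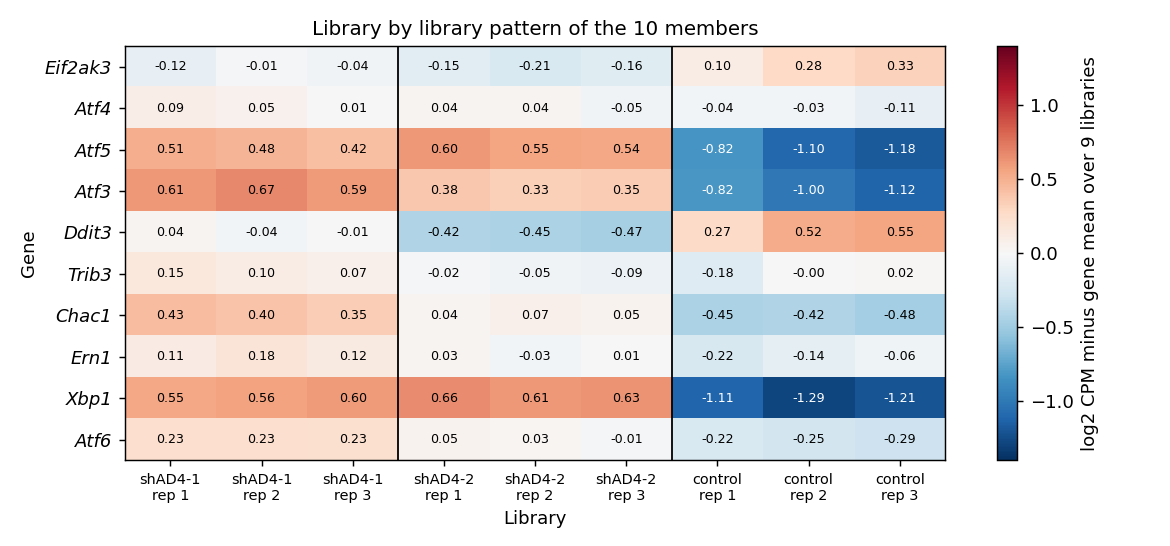
Log2 CPM of each gene minus its own mean over the 9 libraries (colour and printed value), with genes in rows and libraries in columns. Control replicate 1 sits closer to the hairpin libraries than the other controls do for Ddit3, Eif2ak3, Atf3, Atf5, Xbp1 and Atf6. It sits below both other controls for Trib3 and Ern1.

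The direct comparison of the hairpin groups asked whether the members differ between the derivatives. At an adjusted p of 0.05, 6 of the 10 were higher with shAD4-1 than with shAD4-2 and none lower, against 14.0% and 13.4% of all tested genes (edgeR). No member was lower at an unadjusted p under 0.05, with DESeq2 or with limma, while Atf5 was called lower with only those 2 groups in the fit (adjusted p = 0.0129) and without control replicate 1 (adjusted p = 0.0108). The differences, as log2 fold changes of shAD4-1 over shAD4-2, were 0.44 for Ddit3 (SE 0.05; edgeR adjusted p = 1.09e-05), 0.34 for Chac1 (SE 0.04; adjusted p = 3.69e-06), 0.27 for Atf3 (SE 0.05; adjusted p = 0.00108) and 0.21 for Atf6 (SE 0.04; adjusted p = 0.000327). Trib3 differed by 0.16 (edgeR adjusted p = 0.0142) and Ern1 by 0.14 (adjusted p = 0.0324). The Ern1 call was lost without any 1 of the 6 hairpin libraries, and that of Trib3 without shAD4-1 replicate 1 or shAD4-2 replicate 3. The differences of Eif2ak3 (0.12, interval 0.00 to 0.24), Atf4 (0.04, interval -0.04 to 0.12), Xbp1 (-0.06, interval -0.15 to 0.03) and Atf5 (-0.10, interval -0.22 to 0.03) did not pass.

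Genes around these factors were counted in 8 lists grouped by pathway. The lists were written with earlier results of these data known, so their counts are a description and not a test. Beside each count below stand the 28.1% of all tested genes that were higher with both hairpins, the 27.6% that were lower with both and the median log2 fold change of -0.01 over all tested genes. Among 11 eIF2 kinases and subunits of eIF2 and its exchange factor eIF2B, 3 rose and 4 fell with both hairpins, shares near those of all tested genes (28.1% and 27.6%). Eif2ak2, the kinase PKR that senses double-stranded RNA, averaged 99.7 ± 1.23 CPM with shAD4-1, 101 ± 3.27 with shAD4-2 and 233 ± 21.3 in control (SD, n = 3 each), a fall of 2.34-fold and 2.31-fold. Eif2ak1, the heme-regulated kinase, rose 1.30-fold and 1.36-fold, and the fourth kinase, Eif2ak4, was not called (edgeR adjusted p = 0.0651 and 0.386). The eIF2 subunit gene Eif2s2 fell 1.63-fold and 1.71-fold, and the eIF2B subunit gene Eif2b3 rose 1.98-fold and 1.90-fold. Among 9 genes of eIF2 dephosphorylation and its adaptors, 3 rose and 3 fell with both, again near 28.1% and 27.6%. Ppp1r15a, the stress-induced phosphatase subunit GADD34 and itself a CHOP target, rose 1.62-fold and 1.64-fold, and Dnajc3, an inhibitor of PERK, 1.25-fold and 1.30-fold. The phosphatase catalytic subunit Ppp1ca fell 1.20-fold and 1.23-fold, and Oma1, a mitochondrial protease that relays stress to eIF2, 1.37-fold and 1.66-fold.

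Of 21 tested partners and targets of ATF4, Fgf21, Gdf15 and Vldlr passed the filter on low counts through hairpin libraries alone and are left out of this count. Of the other 18, 13 rose and 3 fell with both hairpins, against 28.1% and 27.6% of all tested genes. Those 18 had median log2 fold changes of 0.55 with shAD4-1 and 0.44 with shAD4-2, against -0.01 over all tested genes. Cth, an enzyme of cysteine synthesis, averaged 138 ± 1.86, 154 ± 3.41 and 75.3 ± 4.45 CPM with shAD4-1, with shAD4-2 and in control, a rise of 1.83-fold and 2.05-fold. Phgdh, the entry enzyme of serine synthesis, rose 1.66-fold and 1.56-fold, Shmt2, a mitochondrial serine enzyme, 1.65-fold and 1.74-fold, and Slc7a1, a transporter of cationic amino acids, 1.61-fold and 1.65-fold. Asns, asparagine synthetase, was called in opposite directions, at 790 ± 15.7 CPM with shAD4-1 and 618 ± 22.3 with shAD4-2, beside 721 ± 29.2 CPM in control (log2 fold changes 0.13 and -0.22; edgeR adjusted p = 0.00661 and 5.87e-05; difference 0.35, adjusted p = 4.63e-06). The rise with shAD4-1 was lost with limma on log2(FPKM + 1) (adjusted p = 0.115). Among 4 tested CHOP targets and death genes, 2 rose and 1 fell with both, too few genes to set against 28.1% and 27.6%. Tnfrsf10b, a death receptor, rose 2.02-fold and 2.73-fold and Ero1a, an ER oxidase, 1.87-fold and 1.44-fold, whereas Ddit3 itself fell. Bbc3, the killer protein PUMA, fell 1.45-fold and 1.54-fold, and Bcl2l11, the killer protein BIM, rose 1.16-fold with shAD4-1 (edgeR adjusted p = 0.016) and had a log2 fold change of 0.05 with shAD4-2 (adjusted p = 0.564). The Bcl2l11 call ended with control replicate 1 left out (edgeR adjusted p = 0.0597), with shAD4-1 replicate 3 left out (adjusted p = 0.0817) and with limma on log2(FPKM + 1) (adjusted p = 0.12).

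Of 16 tested genes of IRE1 processing and XBP1 targets, 9 rose and 2 fell with both hairpins, against 28.1% and 27.6% of all tested genes, with medians of 0.19 and 0.22. Sec61b, a subunit of the ER translocation channel, averaged 57.4 ± 1.65, 53.2 ± 1.20 and 25.7 ± 1.55 CPM with shAD4-1, with shAD4-2 and in control, a rise of 2.23-fold and 2.07-fold. Ssr1, of the translocon-associated complex, rose 1.70-fold and 1.71-fold, Pdia6, a disulfide isomerase, 1.58-fold and 1.68-fold, and Sec63, a translocation factor, 1.50-fold and 1.54-fold. Of 14 tested genes of ATF6 processing and ATF6 targets, 9 rose and 2 fell with both, against 28.1% and 27.6% of all tested genes, with medians of 0.50 and 0.46. Herpud1, a component of ER-associated degradation, averaged 195 ± 2.51, 173 ± 8.26 and 86.9 ± 3.74 CPM in the same order, a rise of 2.24-fold and 1.99-fold. The ER chaperones Hspa5, Hsp90b1 and Calr rose 1.97-fold and 2.09-fold, 1.70-fold and 1.65-fold, and 1.72-fold and 1.71-fold. The 2 genes of the ATF6 list that fell with both were Pdia4 (1.15-fold and 1.44-fold) and Derl1 (1.29-fold and 1.19-fold). Those of the XBP1 list were Edem1 (1.14-fold with either hairpin) and Edem2 (1.16-fold and 1.19-fold).

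Of 10 tested membrane-bound and other ATF family factors, Batf passed the filter through hairpin libraries alone. Of the other 9, 3 rose and 2 fell with both hairpins, shares near the 28.1% and 27.6% of all tested genes. Atf2 rose 1.51-fold and 1.44-fold. Creb3l1, an ER-bound factor, was low throughout and fell 1.98-fold and 2.38-fold, to 2.81 ± 0.240 CPM with shAD4-1 and 2.33 ± 0.182 with shAD4-2, against 5.55 ± 0.776 CPM in control. Batf3, known as a dendritic cell factor, rose but stayed at no more than 2.70 CPM in any library, and Batf at no more than 0.806 CPM. With limma on FPKM and a minimum of 1 FPKM, Batf and Creb3l4 dropped out, as they stayed at no more than 0.880 and 0.902 FPKM. In that fit 2 genes of the list were higher and 3 lower with shAD4-1, in place of 4 and 2 with edgeR. With shAD4-2, 2 were higher and 5 lower, in place of 5 and 3. The edgeR counts of higher genes include Batf. Over all genes tested with edgeR, 32.7% were higher and 32.3% lower with shAD4-1, and 34.2% and 34.8% with shAD4-2. Shares over all genes in the limma fits are not given here, so the counts show only how the list depends on the fit. Limma on log2(FPKM + 1) without a filter called 4 higher and 4 lower with shAD4-1, and 4 higher and 6 lower with shAD4-2. Of 8 mitochondrial stress genes, 5 rose and 2 fell with both, against 28.1% and 27.6% of all tested genes. The rises with the smallest adjusted p were those of the chaperones Hspa9 (1.77-fold and 1.80-fold), Hspe1 (1.66-fold and 1.74-fold) and Hspd1 (1.48-fold and 1.58-fold). Clpp, a mitochondrial protease, fell 1.39-fold and 1.46-fold.

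**Figure D4:**
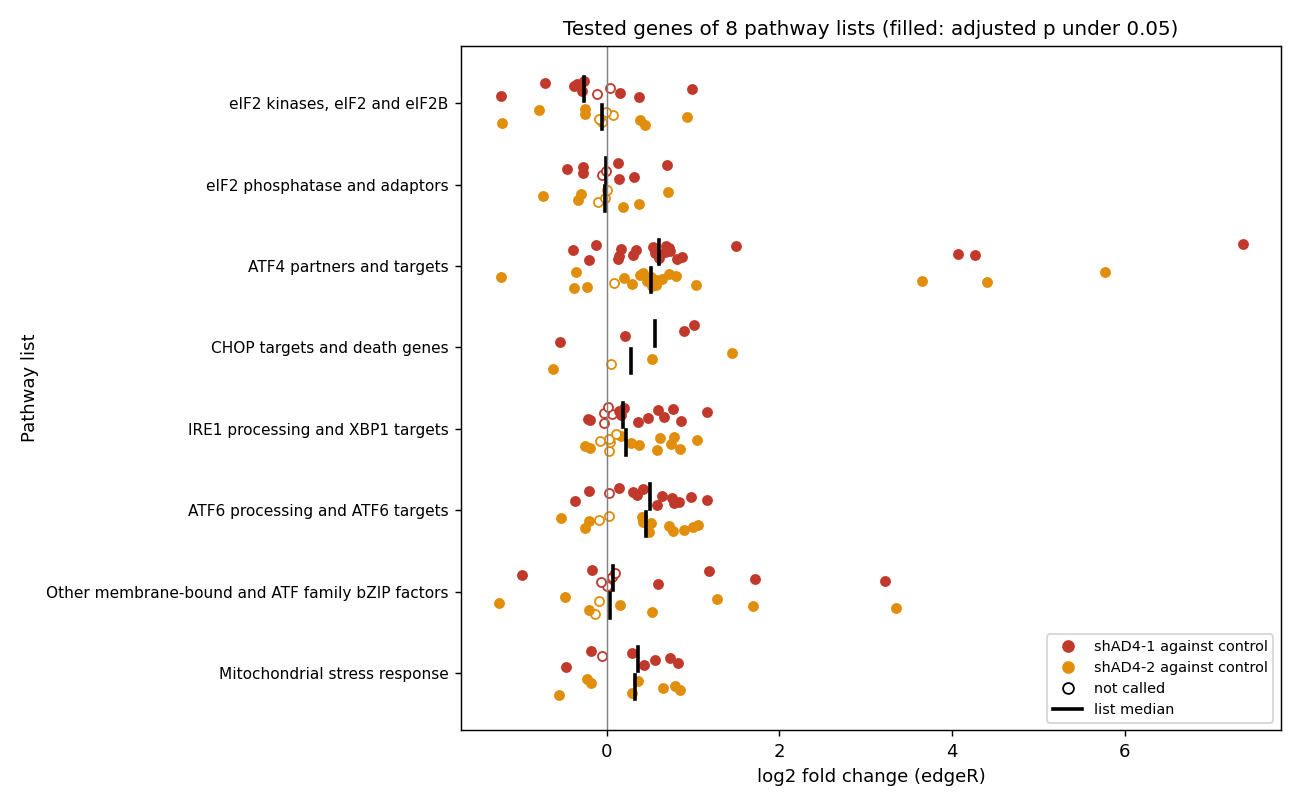
Log2 fold changes of the tested genes of each list (rows) for shAD4-1 and shAD4-2 against control, filled where called, with list medians as black bars. Over all its 21 tested genes the ATF4 list has medians of 0.60 and 0.51, but 3 of them passed the filter through hairpin libraries alone. The other 18 have medians of 0.55 and 0.44. The ATF6 list has medians of 0.50 and 0.46. The list of eIF2 kinases and subunits has medians of -0.26 and -0.05. That of eIF2 dephosphorylation has -0.008 and -0.015, near the -0.010 and -0.011 of all tested genes. The point farthest to the right is Vldlr, which had no control reads, so its fitted value is not a measure of size.

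The genes of the whole table most like 2 of the members were sought among 10401 genes with a mean of at least 5 CPM, by the root mean square difference of log2 CPM over the 9 libraries after centring each gene on its mean. Nearest to Atf4 were Ints5 (0.03), Naa60 (0.03) and Atg3 (0.03), all nearly level across groups. Nearest to Xbp1 were Pfdn6 (0.08), Nat8f5 (0.08) and Tnfrsf12a (0.08). Tnfrsf12a, a receptor of the TNF family, averaged 132 ± 2.59 CPM with shAD4-1, 129 ± 4.52 with shAD4-2 and 39.9 ± 0.701 in control.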

How the data were processed

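Total RNA of 9 B16 libraries was sequenced from kits named VAHTS Universal V6, per the labels' protocols. The submitters' processing notes name fastp, HISAT2, HTSeq and GRCm39. Tool versions and the strand setting were not stated, so overlapping or antisense genes cannot be told apart. The authors deposited whole-number read counts per gene and FPKM. All 155616 nonzero FPKM values gave, with the counts and column sums, a gene length within 0.001 bases of a whole number. Columns were matched to samples by group name, hairpin number and replicate number. Adgrl4 is not analysed here.

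Counts were fitted with edgeR 4.0.16 (R 4.3.3): filterByExpr (about 10 reads in 3 libraries), TMM scaling, glmQLFit and glmQLFTest over all 9 libraries with group as the only term, Benjamini-Hochberg adjustment over 13807 genes, threshold 0.05, no fold minimum. The fit was also run on simulated counts in which few genes changed. In these data 8968 and 9522 genes were called against control, so that run does not measure the fit's error rate here. Each SE was derived from a log2 fold change and its F statistic. CPM values use TMM-scaled library sizes. Log2 CPM for likeness used a prior count of 2.

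The members, lists and rules were chosen with earlier results of these data known. Named list genes are the 4 per list with the smallest value of the larger adjusted p against control, and any called in opposite directions. The genes of the XBP1 and ATF6 lists that fell with both hairpins are named as well. Of the list genes, 5 pathway genes (Stc2, Aars1, Nars1, Wars1 and Pmaip1) are not analysed here. As alternatives, scaling was changed to RLE or upper quartile, and the filter was dropped or set to 1 CPM in at least 3 libraries. DESeq2 1.42.0, a fit of only the 2 groups compared, a replicate block and leaving out each library were also run, as was limma 3.58.1 on log2(FPKM + 1) and log2(FPKM + 0.1) with at least 1 FPKM in 3 libraries, and on log2(FPKM + 1) without a filter. Intervals are 95% and cover the spread between libraries.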

Additional observations from a re-analysis of the deposited data

Results flagged for a closer look

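The effects of the 2 hairpins against the shared controls differed, by the direct edgeR test of shAD4-1 against shAD4-2, for 6 of the 10 genes, all higher with shAD4-1, beside 14.0% of all tested genes higher and 13.4% lower. In log2 fold change of shAD4-1 over shAD4-2 the difference was 0.44 for Ddit3, 0.34 for Chac1, 0.27 for Atf3, 0.21 for Atf6, 0.16 for Trib3 and 0.14 for Ern1. Ddit3 was called lower with both hairpins and Chac1, Atf3, Atf6 and Ern1 higher with both, so that for these genes the derivatives differed in size and not in direction. Trib3 was called higher with shAD4-1 and was not called with shAD4-2. The direct call of Ern1 was lost without any single hairpin library and with limma, and its call with shAD4-2 against control was lost with limma. That of Trib3 between the hairpins was lost without shAD4-1 replicate 1 or shAD4-2 replicate 3, so the differences of Ern1 and Trib3 are not stable.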

How the results depend on the processing

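The counts of members called and of all genes called stayed within 1.5 times the main count under all alternatives run and with each library left out. Without 1 library, 9 to 10 members were called for shAD4-1 against control, 8 to 9 for shAD4-2 against control and 4 to 8 for shAD4-1 against shAD4-2. The corresponding counts over all genes were 8372 to 9206, 8985 to 9704 and 2785 to 4937. Of 570 refits of single members, 535 kept direction and side of the threshold, 23 lost a call, 5 gained one and 7 changed sign. All 7 were Trib3 with shAD4-2 against control, whose log2 fold change was 0.0046 with RLE scaling, 0.0072 with DESeq2, 0.0031 with no filter and 0.0019 with only the 2 groups compared, and ran from -0.0535 to 0.0413 with a library left out. Bcl2l11 with shAD4-2, also not called, was at -0.0018 with limma on log2(FPKM + 1), with or without a filter, at -0.0013 with log2(FPKM + 0.1) and at -0.0148 to 0.135 with a library left out. The cause was not tested. With the replicate block, 10, 8 and 6 members were called in the 3 comparisons, as without it, and 8833, 9375 and 3511 genes. Same-numbered libraries did not deviate together (correlation -0.12 to 0.00 across genes), and the labels give no shared origin, so the numbers were not treated as pairs.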

Other observations

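The ATF4-linked genes described here, Slc7a11 and Pycr1 included, were singled out after their values were seen. Fgf21 and Gdf15, secreted factors known as markers of mitochondrial and integrated stress responses, were nearly silent in control. Both passed the filter on low counts through hairpin libraries alone, so their values are a description with no test. Fgf21 had 421 reads over the shAD4-1 libraries, 417 over shAD4-2 and 21 over control, and Gdf15 had 265, 180 and 15 reads. Vldlr, a lipoprotein receptor, had 64, 19 and 0 reads, at least 20.8-fold and 6.80-fold higher when control is set to 3 reads over the group. Both bounds lie above the medians of all 21 tested genes of the list, so setting Vldlr to them could not move those medians and is no check of them. With Vldlr, Fgf21 and Gdf15 left out, the medians were 0.55 with shAD4-1 and 0.44 with shAD4-2, in place of 0.60 and 0.51.

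The cystine transporter Slc7a11 and the proline synthesis enzyme Pycr1 differed between the hairpins. Slc7a11 averaged 413 ± 15.8 CPM with shAD4-1, 196 ± 13.9 with shAD4-2 and 147 ± 15.5 in control (SD, n = 3 each), and shAD4-1 was 2.11-fold higher than shAD4-2 (edgeR adjusted p = 2.5e-09). Pycr1 averaged 82.2 ± 2.02, 46.3 ± 1.44 and 108 ± 4.99 CPM in the same order, below control with both hairpins, and shAD4-1 was 1.78-fold higher than shAD4-2 (edgeR adjusted p = 2.5e-09). Asparagine synthetase and the glutathione-degrading enzyme Chac1, described above, were likewise higher with shAD4-1 than with shAD4-2. Other ATF4-linked genes went the other way. Of the 21 tested genes of the ATF4 list, 11 were called higher with shAD4-1 than with shAD4-2 and 7 were not called. Those called higher include Vldlr, which passed the filter on low counts through the shAD4-1 libraries alone, so its call is not a test. Fgf21 and Gdf15, among those not called, are also in the 21. The 3 called lower were Sesn2, Cth and Ddit4. Over all tested genes 14.0% were higher and 13.4% lower.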
